A study of Mus musculus with 42 samples.

Results

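Conventional CD4+ T cells (Tconv) taken from mice 72 h after an injection of KT3, an antibody against CD3, were compared with Tconv from non-treated mice. The samples were the arrays labelled 72 h and 0 h of the in vivo Tconv series, 2 arrays in each group and 4 of the 42 arrays in all. In each group the labels number the arrays 1 and 2, and differences were formed within each number as well as in a fit over both. The RNA was hybridised to Affymetrix ST1.0 gene arrays, where many short probes together give the level of 1 transcript cluster. All values are given on the log2 scale of the deposited intensities, on which 1 unit is 2-fold.

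The mice of these groups were females of 8 weeks on the NOD strain and carried a Foxp3-IRES-GFP reporter, in which GFP marks Foxp3-expressing regulatory T cells (Treg). Spleen cells were sorted on a MoFlo sorter as B220-CD8a-CD11b-CD11c-CD4+GFP- cells, so that Tconv were the GFP-negative CD4+ cells. Number 1 was single-sorted and number 2 double-sorted, at 0 h and at 72 h alike. KT3 was given intravenously, and 1 further array came from a mouse given rat IgG 24 h before (number 2, double-sorted). Treg of the same strain, sex and age, sorted as GFP+ cells, and Tconv from splenocytes cultured with KT3 at 1.25 µg/ml served for comparison. In culture number 1 was a female of 9 weeks and number 2 a male of 14 weeks. The labels do not say that arrays of a group came from separate animals, so the p-values measure only how far these arrays vary, and that variation may be technical.

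CD3 carries the signal of the T cell receptor into the cell, and antibodies against it trigger the receptor without antigen. Activated T cells pass through a burst of immediate genes, growth and division, and then shut much of this down, while keeping inhibitory receptors such as LAG-3 and CTLA-4 that restrain a further response. T cells that stay alive but respond poorly after such a stimulus are called anergic. Antibodies against CD3 are known for restoring tolerance in diabetic NOD mice.

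The sorted cells carried the markers of their gate. Cd4 read 11.59 and 11.67 at 0 h and 11.54 and 11.67 at 72 h (number 1, then number 2, here and below). Cd3e, a chain of CD3 itself, read 11.46 and 11.48 at 0 h and 11.40 and 11.50 at 72 h. Foxp3, the transcription factor that defines Treg, read 7.73 and 7.72 at 0 h and 7.76 and 7.58 at 72 h, and its groups overlapped. The mean of 11 CD4 T cell genes stood between 11.11 and 11.27 on the 4 arrays.

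At 72 h 33 genes were called higher and 3 lower than at 0 h, of 12425 tested (0.266% and 0.0241%). A gene was called where limma's Benjamini-Hochberg adjusted p was under 0.05. All 36 called genes moved in the same direction in both numbers, with no overlap between the groups, and 30 of them by at least 2-fold. They were chosen by a test on the same arrays, so a lack of overlap is no separate support. Uncalled genes such as Il7r also had groups without overlap, and the share over all genes was not counted. The genes called higher were led by the surface gene Ms4a4c, the transcription factor Myb, the matrix gene Itih5, the inhibitory receptor gene Lag3 and the protease gene Gzmb. The genes called lower were Slc16a5, a member of the monocarboxylate transporter family, Amigo2, a cell adhesion gene, and Gnb1l, which encodes a WD-repeat protein. With the array number, which at 0 h and 72 h goes with the sort mode, as a block in the fit, 47 genes were called higher (0.378%) and 5 lower (0.0402%), all 36 among them. On both 0 h arrays 9 of the genes called higher, Gzmb, Itih5, Xdh and Cxcr5 among them, read below the array median. Over all genes tested the median change was -0.04 in number 1 and 0.03 in number 2, and 40.5% of genes moved in opposite directions in the 2 numbers.

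**Figure D1:**
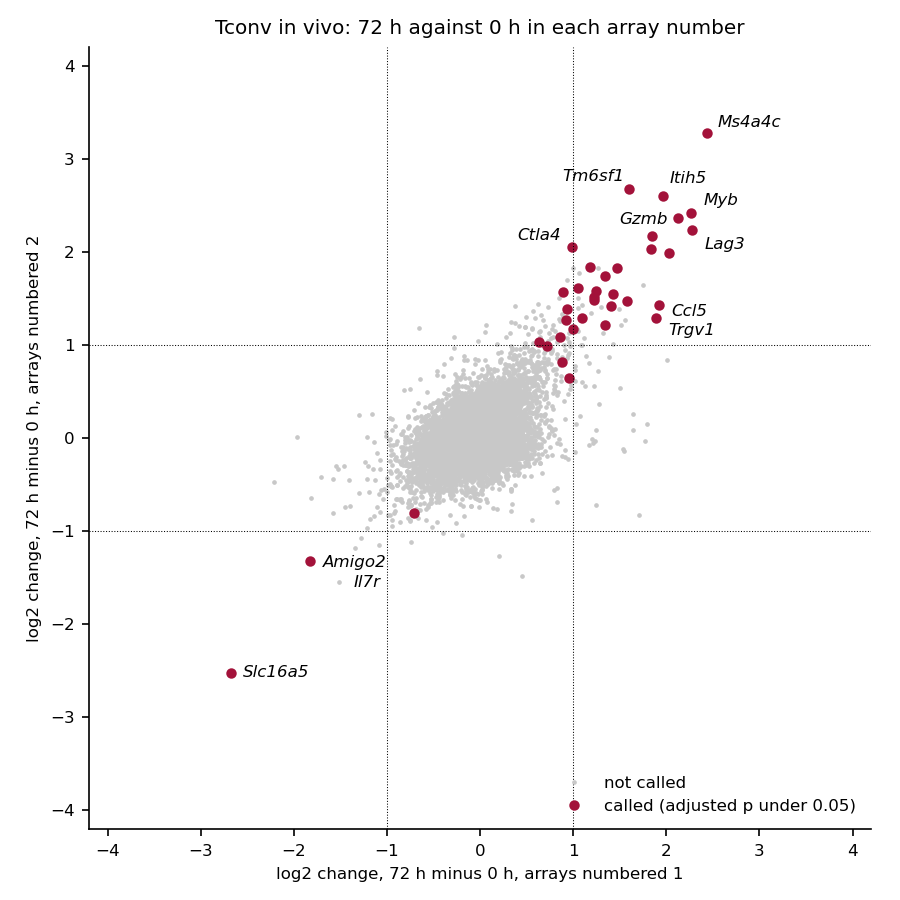
Change from 0 h to 72 h in Tconv in vivo on the log2 scale, in the arrays numbered 1 (horizontal) and in those numbered 2 (vertical), for 12425 genes. Grey points were not called, red points are the 36 called genes, and dotted lines mark 2-fold; Slc16a5 stands alone at the lower left, and the genes called higher lie in the upper right.

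By size alone 42 genes were at least 2-fold higher in both numbers (0.338% of those tested) and 6 lower (0.0483%), with no test. Of these 48 genes 25 were also called. The members nearest to the 2-fold threshold were Nkg7 (1.08 and 1.00) and Stap1 (1.09 and 1.00) inside it, and Eno3 (1.00 and 1.83) and Syt11 (1.00 and 1.17) just outside. Taken by itself, number 1 had 71 genes up (0.571%) and 44 down (0.354%) by 2-fold, and number 2 had 101 up (0.813%) and 11 down (0.0885%).

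Markers of other cells did not move alike in the 2 numbers. In the single-sorted number 1 the mean of 12 neutrophil genes went from 6.14 to 7.03, with 11 of 12 higher and 5 at least 2-fold, and the mean of 8 erythroid genes from 6.58 to 7.34. In the double-sorted number 2 the same means went from 5.64 to 5.52 and from 6.21 to 5.93. The plasma cell gene Jchain, which encodes the joining chain of antibodies, read 5.90 and 4.46 at 0 h and 7.91 and 5.30 at 72 h. It changed most of the 6 plasma cell genes in both numbers, and their mean changed by 0.44 and 0.16. B cell markers changed by -0.03 and -0.10, macrophage markers by -0.03 and -0.01, and no gene of the 11 lists of other cells was called. Both means were higher in number 1 at both times. B cell markers read 6.54 and 5.51 at 0 h and 6.52 and 5.40 at 72 h. Macrophage markers read 6.66 and 5.73 at 0 h and 6.62 and 5.72 at 72 h. The part of such RNA in the changes of number 1 was not tested. In these bulk samples fewer cells of a type and less RNA per cell cannot be told apart.

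**Figure D2:**
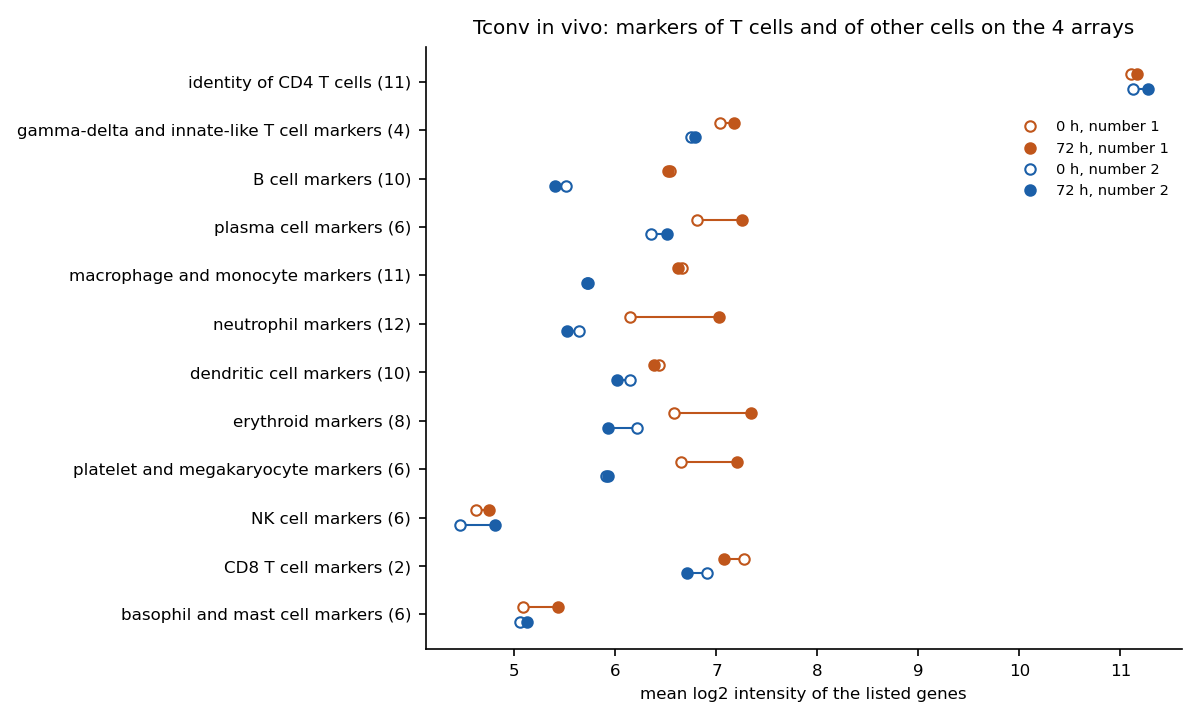
Mean log2 intensity of the CD4 T cell genes and of 11 lists of markers of other cells on the 4 Tconv arrays in vivo (open circles 0 h, filled circles 72 h; orange number 1, blue number 2), with the number of genes in brackets. Neutrophil, erythroid and platelet means lie further right at 72 h in number 1 (by 0.89, 0.76 and 0.56) and moved by -0.13, -0.27 and 0.02 in number 2.

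Among 11 inhibitory receptor genes tested, Lag3 and Ctla4 rose and none was called lower, with 6 higher and 4 lower in both numbers. Over all genes tested 29.1% were higher and 30.4% lower in both numbers. Lag3, whose product binds MHC class II, read 7.10 and 6.99 at 0 h and 9.38 and 9.22 at 72 h. Both 72 h arrays stood above both 0 h arrays, and the change was 2.26 (SE 0.33, n = 2 and 2, limma adjusted p = 0.000601), or 4.77-fold. Ctla4, whose product competes with CD28 for its ligands, read 7.20 and 6.34 at 0 h and 8.18 and 8.40 at 72 h. These groups did not overlap either, although the 0 h arrays differed by almost as much as number 1 changed, and the fitted change was 1.52 (SE 0.30, limma adjusted p = 0.0177).

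The other inhibitory receptors did not pass the test. Pdcd1, which encodes PD-1, changed by 0.36 (limma adjusted p = 1.00), Btla by 0.38 and Tigit by 0.05, and Cd274, the gene of the PD-1 ligand PD-L1, by -1.70 in number 1 and -0.42 in number 2. The median of the 11 genes was 0.36, beside 0.00 for all genes tested. Of 19 genes of anergy and exhaustion 1 was called, Izumo1r, which encodes the folate receptor-like protein FR4 known from anergic cells and Treg. It read 8.43 and 8.36 at 0 h and 9.52 and 9.65 at 72 h, a change of 1.20 (SE 0.22, limma adjusted p = 0.00972) without overlap of the groups. The ubiquitin ligase gene Cblb changed by 0.74 and Nt5e, which encodes CD73, by -0.17, and neither was called. The list's median was -0.01.

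Cytotoxic genes split. Gzmb, which encodes the protease granzyme B, and Ccl5, a chemokine of effector cells, were called higher among 14 tested, and none was called lower. Gzmb read 5.57 and 5.53 at 0 h and 7.69 and 7.90 at 72 h, with both 72 h arrays far above the 0 h arrays, a change of 2.24 (SE 0.34, limma adjusted p = 0.000738). Ccl5 read 8.79 and 8.25 at 0 h and 10.71 and 9.67 at 72 h, a change of 1.67 (SE 0.33, limma adjusted p = 0.0150) that was larger in number 1. Prf1, which encodes the pore former perforin that granzymes need to enter a target, read 8.95 and 8.73 at 0 h and 7.81 and 7.90 at 72 h. It was lower in both numbers without being called (change -0.99, limma adjusted p = 0.203), and was called after quantile normalization (limma adjusted p = 0.0362). Fasl, the gene of the death ligand of Fas, changed by 1.00 and Gzma by 0.16, both uncalled, and the median of the list was 0.20. Over the same arrays the 2 CD8 genes changed by -0.21 and -0.19 on average. The 6 NK cell genes changed by 0.12 and 0.35, and 5 of them were too dim to test.

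The 250 bases before the start of Gzmb are shown because its promoter is a known site of AP-1, the factor pair that T cell receptor signals induce, and because the gene was called at 72 h. They are from RefSeq on build GRCm38.p6 and lie at chr14:56262335-56262584 on the minus strand. Capitals mark the match to TGACTCA, the AP-1 site, which was searched on both strands.
Gzmb: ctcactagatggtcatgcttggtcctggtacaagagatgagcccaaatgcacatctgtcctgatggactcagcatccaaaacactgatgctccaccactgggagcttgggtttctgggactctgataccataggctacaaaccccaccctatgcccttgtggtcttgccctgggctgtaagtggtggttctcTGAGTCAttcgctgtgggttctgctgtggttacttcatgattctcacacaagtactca
The match lies on the strand opposite to the gene and begins 58 bases before the start. TGACTCA was present in 5.16% of 27025 promoter windows and in 2 of the 26 called genes with a window (7.69%). A match describes the letters and is no sign of binding.

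Among 22 transcription factors of effector and memory cells, Myb and Id3 rose. Myb, known for proliferation and for the upkeep of memory and progenitor cells, read 6.59 and 7.22 at 0 h and 8.86 and 9.64 at 72 h. Number 2 was the higher of the 2 arrays at both times, the changes were 2.26 and 2.42, and the fit gave 2.34 (SE 0.30, limma adjusted p = 0.000181), or 5.06-fold. Id3, an inhibitor of the E proteins that set T cell fates, read 6.73 and 7.07 at 0 h and 8.07 and 8.28 at 72 h. The change was 1.27 (SE 0.27, limma adjusted p = 0.0313). Factors tied to effector programmes were not called: Tbx21, which encodes T-bet, changed by 0.90, Bcl6 by 0.83, Eomes by 0.70 and Prdm1 by -0.34. The median of the list was 0.39, and 14 of 22 members were higher in both numbers, beside 29.1% of all genes.

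Surface and signalling genes of helper cells were called singly. Cxcr5, the receptor that leads T cells to B cell follicles, rose from 6.55 and 5.97 to 8.40 and 8.15, a change of 2.01 (SE 0.34, limma adjusted p = 0.00377), and was the one called gene of 11 tested follicular helper genes. The other 10, among them Icos (0.89), Slamf6 (1.04) and Il21 (0.20), were not called. Of the 11 genes 9 were higher in both numbers, beside 29.1% of all genes, and the median was 0.57. Il2rb, the chain shared by the receptors of interleukin-2 and interleukin-15, started at 8.86 and 8.46 and rose by 1.43 and 1.55, a change of 1.49 (SE 0.25, limma adjusted p = 0.00254). Il2ra, the other chain that Treg carry, changed by -0.28 in number 1 and 1.08 in number 2. Tnfsf4, which encodes OX40 ligand, rose from 4.82 and 5.09 to 6.40 and 6.57, a change of 1.53 (SE 0.30, limma adjusted p = 0.0150), the only call among 14 TNF family genes. All 4 of these values lay below the medians of their arrays, so Tnfsf4 was tested because of its level at other times, and its size is uncertain. Ctla4, Il2rb and Izumo1r were also the 3 called of 25 genes of the Treg signature, whose median was 0.22, with Foxp3 at -0.06. None of the 19 cytokine and chemokine genes but Ccl5 was called, and Ifng and Il2 changed by 0.12 and 0.15.

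The largest rise was that of Ms4a4c, a gene of the membrane-spanning family to which CD20 belongs. It read 7.70 and 7.54 at 0 h and 10.14 and 10.82 at 72 h, a change of 2.86 (SE 0.53, limma adjusted p = 0.00915), or 7.25-fold. Itih5, which encodes a hyaluronan-binding matrix protein, rose from 6.32 and 6.13 to 8.29 and 8.73, by 2.28 (SE 0.33, limma adjusted p = 0.000601). Xdh, the enzyme of the last steps of purine breakdown, rose from 6.52 and 6.45 to 8.55 and 8.44, by 2.01 (SE 0.30, limma adjusted p = 0.000668). In each of these genes both 72 h arrays lay above both 0 h arrays by more than the arrays of a group differed.

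Gimap7, one of a family of lymphocyte GTPases, rose from 8.46 and 8.37 to 10.30 and 10.40, by 1.94 (SE 0.29, limma adjusted p = 0.000797). The other 7 GIMAP genes were not called and changed by -0.28 to 0.86. Neurl3, a ubiquitin ligase gene, rose by 1.65 (SE 0.24, limma adjusted p = 0.000601) and Pde2a, a phosphodiesterase of cyclic nucleotides, by 1.16 (SE 0.16, limma adjusted p = 0.000264). Pde2a read 8.64 and 8.37 at 0 h and 9.57 and 9.76 at 72 h, without overlap. Tm6sf1 rose by 2.14, Kcnf1, a potassium channel subunit, by 1.41, and Fuca2, a lysosomal fucosidase, by 1.37.

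Trgv1, a variable segment of the gamma chain of the T cell receptor, rose from 6.19 and 6.45 to 8.08 and 7.74, by 1.59 (SE 0.33, limma adjusted p = 0.0232). Both 0 h values lay below the array medians. Among the Tconv arrays in vivo only those at 72 h and after rat IgG exceeded them. Its level at 72 h thus helped Trgv1 pass the filter, and the size of its rise is uncertain. The mean of 4 other genes of gamma-delta and innate-like T cells changed by 0.13 and 0.03 over the same arrays, and none of them was called. Pglyrp1, which encodes a peptidoglycan recognition protein that neutrophils also make, rose from 7.61 and 7.19 to 8.80 and 9.03, by 1.51 (SE 0.32, limma adjusted p = 0.0264). It changed by 1.18 in number 1 and 1.84 in number 2, beside 0.89 and -0.13 for the neutrophil mean, whose part in this result was not tested.

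The remaining genes called higher are named for completeness, A430093F15Rik, Mcoln2, Ppm1j and Ptms among them outside the naming rule, as were Ckap2l and Gnb1l. They were A430093F15Rik (1.41), the epoxide hydrolase gene Ephx1 (1.35), the RNA polymerase I factor gene Taf1d (1.33, but 0.24 where its clusters of probes were averaged), Ecm1 (1.09), Syt11 (1.08), Chsy1 (0.97), the lysosomal channel gene Mcoln2 (0.85), Ppm1j (0.83) and Ptms (0.80). The cell division genes Tpx2, Cdc25b and Ckap2l are described below.

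Few genes were called lower, 3 in the fit on all 42 arrays, whose spread includes the culture arrays. In the fit on the in vivo arrays alone 11 were called lower and 44 higher. Slc16a5 read 8.17 and 7.98 at 0 h and 5.49 and 5.46 at 72 h. Both 72 h arrays lay far below both 0 h arrays, and the change of -2.60 (SE 0.27), a 6.07-fold lower level, had the lowest adjusted p of the 36 called genes (limma adjusted p = 1.06e-05). Both 72 h values lay below the array medians, so the size of the fall is uncertain. Slc16a5 was also the one call of 13 genes listed as higher in resting Tconv than in Treg, a list whose median was -0.14. That list was chosen with earlier results of these data known, so the call adds no separate support. Of 6 monocarboxylate transporter genes it was likewise the one call, and Slc16a1 changed by -0.54 and Slc16a3 by 0.15. Amigo2 went from 9.78 and 9.68 to 7.95 and 8.35, by -1.58 (SE 0.31, limma adjusted p = 0.0150), and Gnb1l from 8.00 and 8.14 to 7.28 and 7.33, by -0.76 (SE 0.16, limma adjusted p = 0.0264). With its clusters of probes averaged Gnb1l changed by -0.38 and was not called.

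Il7r, which encodes the interleukin-7 receptor that keeps naive and memory T cells alive, was lower by a like amount in both numbers without being called. It read 11.12 and 11.68 at 0 h and 9.60 and 10.13 at 72 h, changes of -1.52 and -1.55 without overlap (SE of the fit 0.52, limma adjusted p = 0.572). In a fit on the in vivo arrays alone it was called (limma adjusted p = 0.0239), as were Dapl1 (0.0101), Dennd5a (0.0180) and Prf1 (0.0389). Other uncalled genes that were lower in both numbers were Trat1, an adaptor of the T cell receptor complex (-1.17), Cd200r1 (-1.09), Dennd5a (-1.12, limma adjusted p = 0.0634), the tRNA methyltransferase gene Mettl1 (-0.94) and Ggt5 (-0.88, limma adjusted p = 0.0609). Of 12 genes of lymphoid homing and egress none was called. S1pr1, which lets cells leave lymphoid tissue, changed by 0.02, Klf2 by 0.07 and Ccr7 by -0.36. Among the genes not called, Dapl1 had the largest rise shared by both numbers, 1.75 and 1.64 (limma adjusted p = 0.483).

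Genes of mitosis were above their 0 h level as a group. All 29 tested were higher at 72 h in both numbers, beside 29.1% of all genes, with a median change of 0.84, and 1 of them, Tpx2, was called. Tpx2, a spindle assembly factor that activates Aurora A, rose from 6.17 and 5.78 to 7.50 and 7.52, by 1.54 (SE 0.29, limma adjusted p = 0.0106). Top2a, which untangles DNA before division, went from 6.92 and 6.54 to 8.40 and 8.37, by 1.66 (SE 0.37, limma adjusted p = 0.0512), just short of a call. After quantile normalization 3 of the 29 were called, Top2a among them (limma adjusted p = 0.0444). With the array number as a block 6 of them were called, Top2a again among them (limma adjusted p = 0.00744). Mki67, the gene of the proliferation marker Ki-67, changed by 1.54 (limma adjusted p = 0.127) and Melk, the least, by 0.18.

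Outside that list the spindle gene Ckap2l was called at 0.85 (SE 0.19, limma adjusted p = 0.0381). Cdc25b, a phosphatase that activates cyclin-dependent kinases, was the one call of 19 genes of the G1 phase, at 1.23 (SE 0.27, limma adjusted p = 0.0349). None of 27 DNA replication genes was called. Of these 25 were higher in both numbers, beside 29.1% of all genes, with a median of 0.27. Of 8 histone genes 6 were higher in both numbers and none was called, with H2ac4 at 1.44 (limma adjusted p = 0.0634). With the block 2 histone genes were called, H2ac4 among them (limma adjusted p = 0.0313). H2ac4 read 3.98 and 3.73 at 0 h and 5.48 and 5.12 at 72 h, all below the array medians. It was thus tested because of its level at other times, and the size of its change is uncertain.

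The 250 bases before the starts of Top2a and Ckap2l are shown because all mitosis genes tested were higher in both numbers and such genes commonly carry CCAAT boxes and a cell cycle genes homology region. They are from RefSeq on build GRCm38.p6, Top2a at chr11:99024190-99024439 and Ckap2l at chr2:129297213-129297462, both on the minus strand. Capitals mark CCAAT and TTTGAA, the core of the homology region, or their reverse complements; both strands were searched and the motifs do not overlap each other.
Top2a: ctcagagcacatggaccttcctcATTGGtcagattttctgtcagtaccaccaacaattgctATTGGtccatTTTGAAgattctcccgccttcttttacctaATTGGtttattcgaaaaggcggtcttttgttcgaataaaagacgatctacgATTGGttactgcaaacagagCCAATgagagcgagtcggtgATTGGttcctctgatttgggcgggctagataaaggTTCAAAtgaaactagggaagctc
Ckap2l: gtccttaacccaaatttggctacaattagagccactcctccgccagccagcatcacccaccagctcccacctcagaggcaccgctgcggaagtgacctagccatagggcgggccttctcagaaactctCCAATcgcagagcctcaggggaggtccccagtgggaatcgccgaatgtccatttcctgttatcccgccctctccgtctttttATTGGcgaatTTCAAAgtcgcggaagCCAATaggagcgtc
Top2a held 6 matches to CCAAT and 2 to TTTGAA, and Ckap2l held 3 and 1. CCAAT was found in 17 of the 25 mitosis genes with a window (68%), in 37.5% of all windows and in 6 of the 26 called genes with a window (23.1%). TTTGAA was found in 9 of 25 mitosis genes (36%), in 18.3% of all windows and in 6 of the 26 called genes (23.1%).

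**Figure D3:**
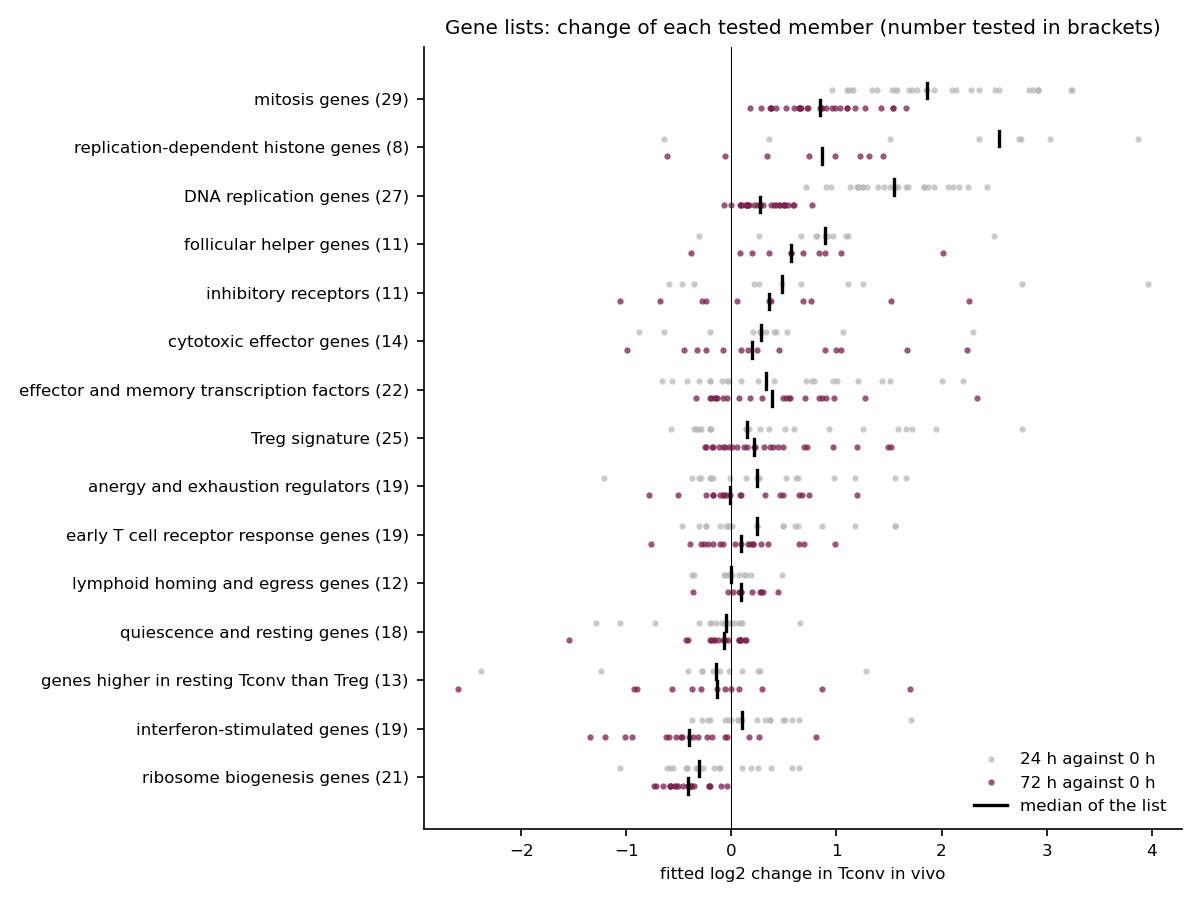
Fitted log2 change of each tested member of 15 gene lists at 24 h (grey) and 72 h (purple) against 0 h, with black bars for the medians and the number of genes tested in brackets. Both contrasts use the same 0 h arrays; mitosis genes have medians of 1.86 and 0.84 and DNA replication genes of 1.55 and 0.27.

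Ribosome biogenesis genes stood on the other side of the 0 h level. Of 21 tested, 20 were lower in both numbers, beside 30.4% of all genes, with a median of -0.41, and none was called. Utp20 and the RNA polymerase I subunit gene Polr1b were the furthest, at -0.74 and -0.72 (limma adjusted p = 0.750 and 0.559). Myc, which drives these genes in growing cells, changed by -0.84 and -0.69 and was not called. Of 10 genes of MHC class I presentation 8 were lower in both numbers (median -0.33), with Tap1 at -0.79 in the fit and not called.

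Interferon-stimulated genes differed between the numbers, with a median of -0.74 in number 1 and -0.06 in number 2 over 19 genes. None was called and 11 were lower in both, beside 30.4% of all genes. Of the 35 lists of T cell biology 14 held a called gene and 21 held none. The latter included glycolysis, cholesterol synthesis, heat shock, cell death, integrin and T cell receptor signalling genes. Slc16a5, Ccl5, Ctla4, Il2rb and Izumo1r each counted in more than 1 list, so the 14 does not measure breadth. Over all genes tested 0.29% were called.

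How firmly a call stood differed between genes. Slc16a5, Myb, Itih5, Lag3, Gzmb, Xdh, Gimap7, Neurl3, A430093F15Rik and Pde2a stayed called when any 1 of the 4 arrays was left out, with the lone array taken to vary like the other groups. The highest adjusted p of these 4 limma fits was 0.0016 for Slc16a5 and 0.045 for Neurl3. Fuca2 lost its call without 0 h number 2 (adjusted p = 0.155). Cxcr5, Il2rb and Ccl5 lost it without 0 h number 2 (0.199, 0.178 and 0.585) and without 72 h number 1 (0.107, 0.107 and 0.656), and Tm6sf1 and Taf1d without 0 h number 2 (0.197 and 0.206) and without 72 h number 2 (0.311 and 0.118).

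Ctla4 was called without 0 h number 1 and not without the other arrays, where its adjusted p ran from 0.127 to 0.847. The same array was the one whose loss left Tpx2, Kcnf1, Cdc25b and Ecm1 called, with other adjusted p from 0.0679 to 1.00. Ms4a4c and Chsy1 stayed called only without 72 h number 1 (otherwise 0.0862 to 0.479), and Ptms only without 72 h number 2 (otherwise 0.142 to 0.318). Trgv1, Tnfsf4, Pglyrp1, Ephx1, Id3, Izumo1r, Syt11, Ckap2l, Mcoln2, Ppm1j, Gnb1l and Amigo2 lost their call without any 1 of the 4, at adjusted p from 0.0726 (Amigo2) to 0.659 (Pglyrp1). After centring each array on its median 10 calls ended, those of Trgv1, Pglyrp1, Ephx1, Id3, Cdc25b, Syt11, Chsy1, Ckap2l, Gnb1l and Amigo2 (adjusted p from 0.0506 to 0.154). In the fit on in vivo arrays alone the calls of Ctla4 (0.0675), Ccl5 (0.0930), Tm6sf1, Pglyrp1, Ecm1 and Mcoln2 ended, while the count of calls rose to 55. Quantile normalization ended the calls of Ppm1j (0.0535) and Ptms (0.0963), and Ckap2l lost its call without the filter on dim genes (0.0506) and with an offset of 16 (0.0564).

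The called genes reached their level at 72 h by different courses. Of the 33 called higher 20 had their highest mean at 72 h, 8 at 24 h and 5 at 8 h, as a description of genes chosen at 72 h. Lag3 read 11.25 and 10.77 at 24 h, well above its 72 h level, and Ctla4 9.97 and 9.11. Gzmb was highest at 8 h, at 8.59 and 8.45, and Cxcr5 likewise, at 9.49 and 9.05. Ms4a4c, in contrast, lay below its 0 h level at 8 h, at 6.86 on both arrays, and read 8.17 and 8.85 at 24 h. Pde2a read 7.31 and 6.99 at 8 h and Trgv1 5.39 and 5.17, below all their other times, and both were highest at 72 h. Slc16a5 read 6.44 and 6.75 at 2 h, 5.85 and 5.65 at 8 h and 5.81 and 5.58 at 24 h, each lower than at the time before.

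**Figure D4:**
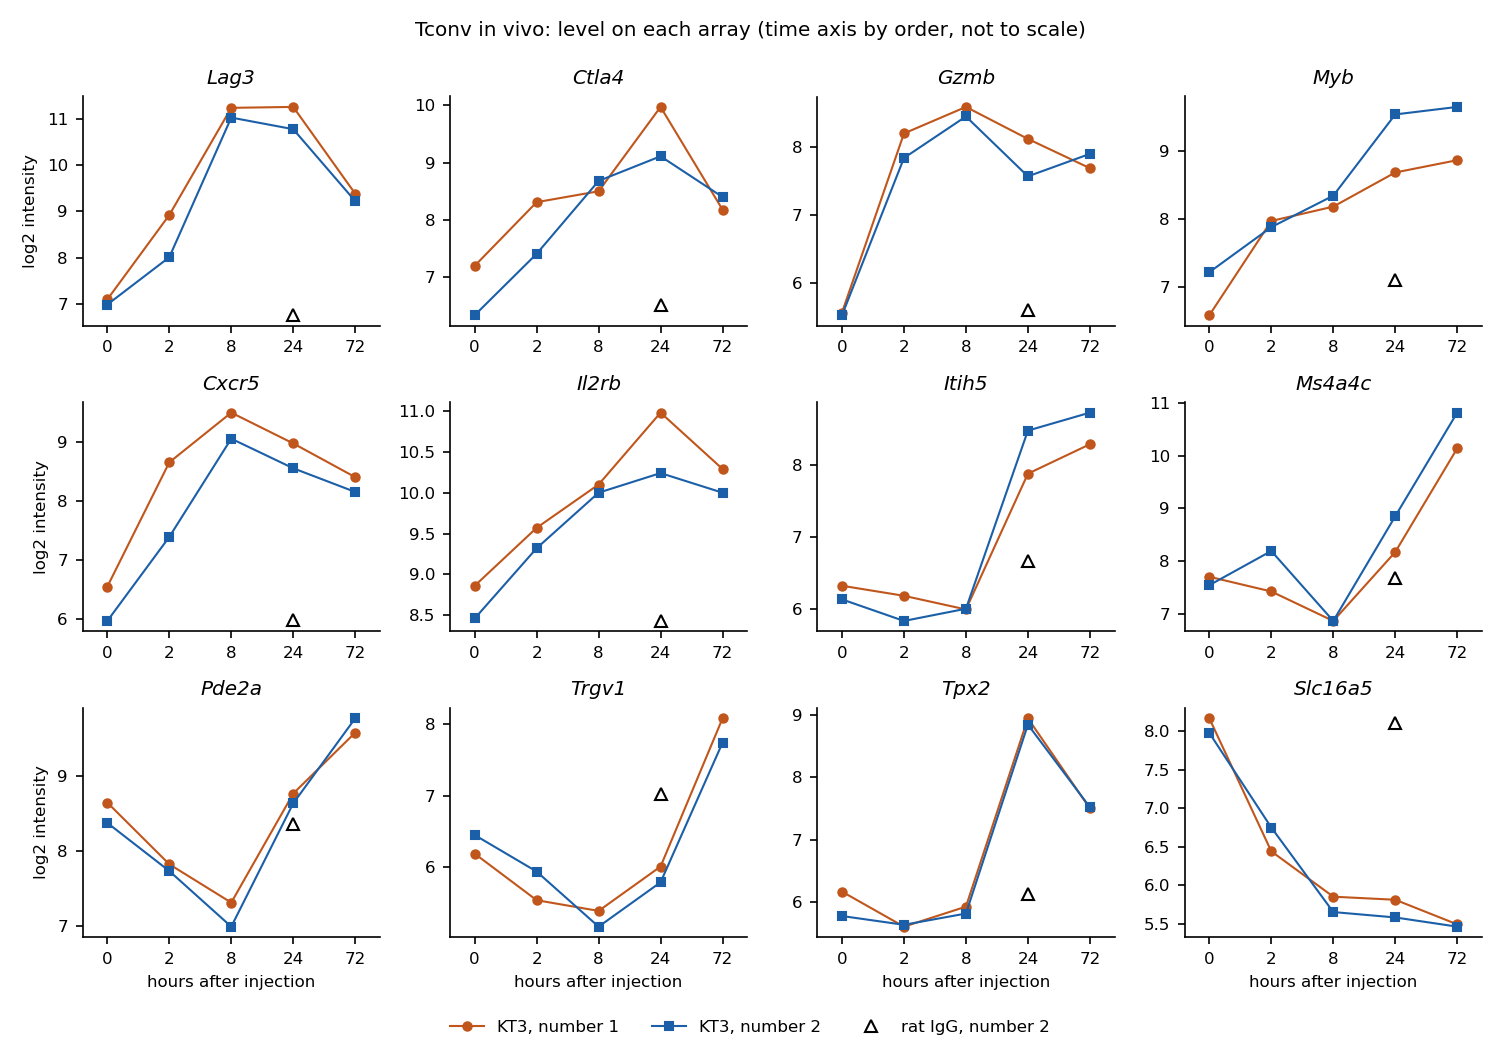
Log2 intensity of 12 of the genes called at 72 h on each Tconv array in vivo against hours after KT3 (orange circles number 1, blue squares number 2; times in order, not to scale), with the rat IgG array at 24 h as a triangle. Lag3 and Ctla4 are lower at 72 h than at 24 h, Myb and Itih5 are near their 24 h level, Ms4a4c, Pde2a and Trgv1 are highest at 72 h, and Slc16a5 is lowest at 72 h.

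Directly between 24 h and 72 h, 101 genes were called lower at 72 h (0.813%) and 6 higher (0.0483%). These values share the 72 h arrays with the comparison against 0 h. The genes called higher were Cxcr6, a receptor of tissue-homing T cells, at 2.10 (limma adjusted p = 0.00122), Trgv1 at 2.01, the cytokine signalling inhibitor Socs2 at 1.54, the chemokine receptor Ccr2 at 1.53, and Pde2a at 0.97, besides Ahnak. Cxcr6 read 8.18 and 7.86 at 0 h, 7.08 and 6.62 at 24 h and 9.09 and 8.81 at 72 h, so that the 24 h arrays were the low ones. Trgv1, Socs2 and Ccr2 read below the array medians on both arrays at 24 h.

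The genes that fell most from 24 h to 72 h were the histone gene H2ac4 (-2.43), the spindle checkpoint gene Bub1 (-2.33) and Tnfsf4 (-2.25, limma adjusted p = 0.000212). At 72 h these 3 read 5.48 and 5.12, 5.06 and 5.79, and 6.40 and 6.57, below the array medians, and they were tested through times at which they are high. With only genes above the median on 2 or more of the 0 h and 72 h arrays, 50 genes were called, 45 lower and 5 higher. Lag3 fell by 1.70 and Ctla4 by 1.25 (limma adjusted p = 0.00793 and 0.0462). Of the mitosis genes 13 of 29 were called lower, of DNA replication genes 7 of 27 and of histone genes 4 of 8. These list counts use the wider filter, which let in genes such as H2ac4 through times at which they are high. They cannot be read apart from that choice. The total of 107 calls was 31 without 72 h number 1, 18 without 72 h number 2 and 17 without 24 h number 1.

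The rat IgG array gave a control for the injection at 24 h, with 1 array and no 72 h counterpart, and the comparison with it uses the same 72 h arrays. Its spread was not measured, and the fit takes it from the other groups. All 33 genes called higher stood above it on both 72 h arrays, and the 3 called lower stood below it. These genes were chosen on the same 72 h arrays, so their position adds no separate support. The share of all genes beyond the IgG array was not counted. Slc16a5 read 8.11 after IgG, beside 8.17 and 7.98 at 0 h, and Lag3 read 6.76 and Gzmb 5.61, near their 0 h levels. Trgv1 read 7.02, which lies between its 0 h and 72 h arrays. In the fit 14 genes were called higher at 72 h than after IgG (0.113%) and 2 lower (0.0161%). They included Lag3 (2.55, limma adjusted p = 0.00304), Gzmb (2.18), Pde2a (1.31), Slc16a5 (-2.63) and Ggt5 (-1.35). No gene was called between IgG and 0 h by limma, with 19 at an unadjusted p under 0.05. With 1 array and a spread taken from other groups, this cannot show that IgG and 0 h were alike. Without either 72 h array 7 genes were called against IgG.

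Treg of the same design differed from Tconv in their change from 0 h to 72 h at 2 genes by limma's test of the difference (0.00805% in each direction). Slc16a5 read 5.92 and 5.73 in Treg at 0 h and 5.38 and 5.54 at 72 h, so that Treg began near the level to which Tconv fell. The Treg change was smaller by 2.23 (SE 0.39, limma adjusted p = 0.0312). All of these Treg values lay below the array medians, so the size of that difference is uncertain. A430093F15Rik rose in Tconv from 7.13 and 7.33 to 8.54 and 8.75 and read 8.35 and 8.31 in Treg at 0 h and 8.23 and 8.35 at 72 h, a difference of -1.45 (SE 0.25, limma adjusted p = 0.0312). Both calls ended when any 1 of the 8 arrays was left out, and after median centring. Gzmb rose by 2.29 in Treg and by 2.24 in Tconv, from 0 h levels of 8.75 and 8.91 in Treg. Ctla4, called in Tconv, stood at 11.14 and 11.07 in Treg at 0 h and 11.15 and 11.51 at 72 h, and the difference in change was not called (-1.29, SE 0.43). In number 1 the Treg at 72 h also carried more RNA of other cells, with neutrophil markers at a mean of 8.06 against 6.07 at 0 h.

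In culture 938 genes were called at 72 h (7.55%), 826 higher (6.65%) and 112 lower (0.901%). After quantile normalization the split was 1575 higher and 1173 lower. Of the 33 genes called higher in vivo 21 were among them, 63.6% of the in vivo list and 2.54% of the in vitro list. The contrasts compare different arrays, but the same fit gives each gene 1 spread for both. The lists are therefore not independent. The in vitro 0 h array number 1 stood apart from all others, with a mean correlation of 0.779 to them. Without it 91 genes were called higher (0.732%) and 43 lower (0.346%), and 15 of the 91 were shared, 45.5% and 16.5% of the lists. The 33 genes had a median change in vitro of 1.15 with that array and 1.06 without, beside 0.15 and -0.06 over all genes. Lag3 (3.16), Myb (3.15), Ms4a4c (4.06), Cxcr5 (2.67) and Ctla4 (2.74) were called in both settings, also without that array. Slc16a5 fell in vitro by 1.76 (limma adjusted p = 0.000285).

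**Figure D5:**
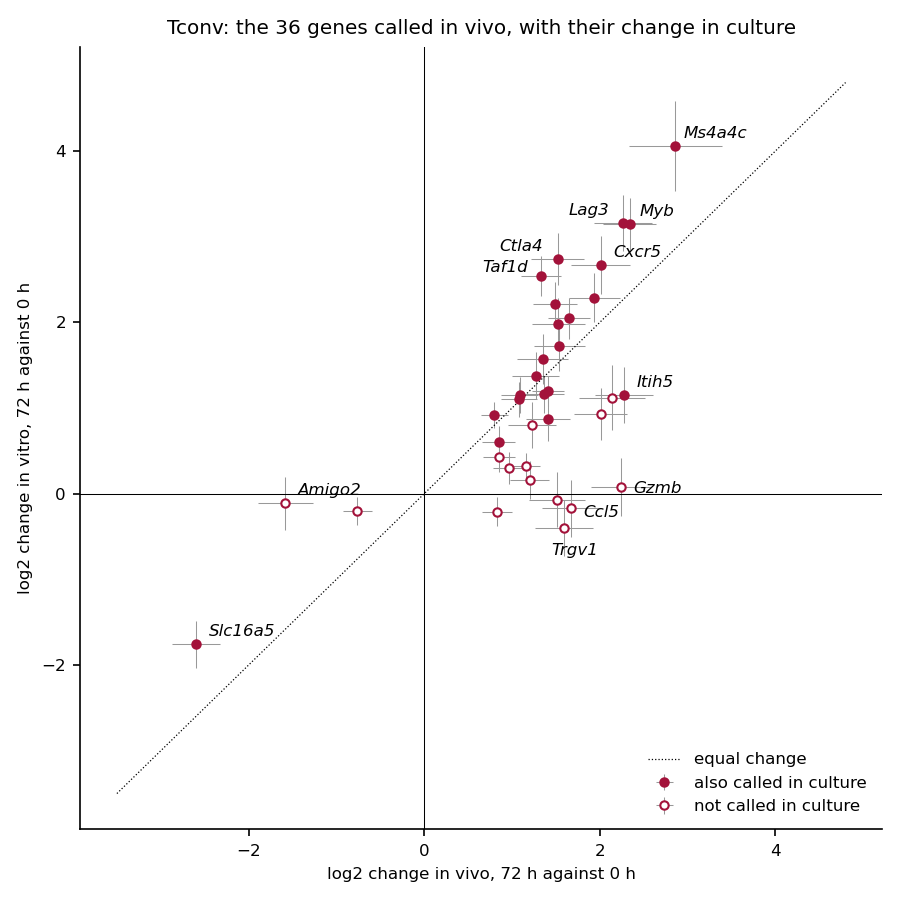
Fitted log2 change from 0 h to 72 h of the 36 genes called in vivo (horizontal) with their change in culture (vertical) and standard errors as bars; filled circles were also called in culture, and the dotted line marks equal change. Gzmb, Ccl5 and Trgv1, among others, lie near 0 or below in culture, and Ms4a4c, Lag3, Myb, Ctla4 and Taf1d, among others, lie above the line.

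Gzmb, Ccl5 and Trgv1 were among the genes called higher in vivo and not called in culture. The others of this kind changed in culture by -0.21 (Ppm1j) to 1.12 (Tm6sf1), with Pglyrp1 at -0.07 and Izumo1r at 0.16. Gzmb read 6.18 and 5.99 at 0 h and 5.94 and 6.40 at 72 h in culture, a change of 0.08, Ccl5 changed by -0.17 and Trgv1 by -0.40. All values of Gzmb and Trgv1 on these culture arrays lay below the array medians. The differences (in vitro minus in vivo) were -2.16 for Gzmb (SE 0.48), -1.84 for Ccl5 and -1.99 for Trgv1, and limma did not call them (adjusted p = 0.0719, 0.141 and 0.0918). Without the in vitro 0 h array number 1 that of Trgv1 was called (-2.46, adjusted p = 0.0306). Over all genes the change differed between culture and injection at 11 (0.0885%), 10 of them with the higher change in culture (0.0805%) and 1 with the lower (0.00805%). That split was 7 and 5 without the in vitro 0 h array number 1, and 36 and 15 after quantile normalization. The interferon-induced GTPase genes Gbp5 and Irgm1 changed by 2.44 and 1.86 in culture and by -0.75 and -1.20 in vivo, differences of 3.19 and 3.05 (limma adjusted p = 0.000532 and 0.00453). Eomes changed by 3.19 in culture and 0.70 in vivo, a difference of 2.49 (limma adjusted p = 0.00757). Btbd11 was the one gene lower, at -0.68 in culture and 0.79 in vivo. Without the in vitro 0 h array number 1 Gbp5 and Irgm1 stayed called (adjusted p = 0.00237 and 0.0306), and Eomes and Btbd11 did not (0.0573 and 0.0878). The count of 11 became 3 without 72 h number 1 in vivo and 5077 without the in vitro 0 h array number 2.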

How the data were processed

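RNA of sorted Tconv and Treg was measured on 42 arrays in 22 groups, taken with their times and numbers from the labels. The deposited table holds linear intensities, a value for each cluster on each array, and the array medians lay between 87.6 and 116.4. The authors summarised the scans by RMA, in GenePattern per the series design text and with Affymetrix Power Tools per the submitters' processing notes. Neither the versions nor whether 1 RMA run covered every array is stated in these sources. RMA's background correction compresses the changes of dim genes.

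Of 24922 clusters 21425 had 1 gene symbol in the platform table, 1399 several and 2098 none. The cluster with the highest mean stood for a gene with several, which gave 19752 genes. Testing was limited to the 12425 genes that exceeded the median of their array on 2 or more arrays, which left out 7327 as dim.

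Values were taken to log2 with no offset and fitted with limma (3.58.1, R 4.3.3) as 22 group means over all 42 arrays, with 20 residual degrees of freedom. The spread was thus shared by all groups, including the rat IgG group with 1 array. Tests were two-sided, with Benjamini-Hochberg adjustment over 12425 genes per contrast, and calls were made under an adjusted p of 0.05. Errors are standard errors of this fit. On simulated data for the 72 h against 0 h contrast over 12425 genes, the fit recovered 56% of 2-fold and 94% of 4-fold changes (100 genes of each size, in 1 simulation), with 9 false calls. The simulated arrays varied independently with the same spread on every array. Same-numbered arrays of the data deviate together, so these rates need not hold for them. Tables and plots were made with Python 3.11.15, pandas 2.3.3, numpy 2.4.6 and matplotlib 3.10.9. The number of arrays limits the precision of every value.

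The comparison, the 47 gene lists (656 genes, of which 539 were tested, 47 were dim and 70 had no cluster of their own) and the rule for naming genes were chosen with earlier results of these data known. The rule took up to 30 called genes with the largest changes, up to 15 higher and 15 lower genes with the largest change shared by both numbers, and 3 genes each way in the further contrasts. It also took the called members of each list, or 2 members where none was called, and left out gene models, small RNAs and most receptor segments. Other list members were named after their values were seen. Alternatives changed the scaling, the filter, the offset, the choice of cluster, the arrays fitted, the replicate block and the variance model, and left out single arrays. A promoter window from RefSeq was found for 26 of the 36 called genes.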

Additional observations from a re-analysis of the deposited data

Results flagged for a closer look

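For 6 genes of the text the change from 0 h to 72 h differed between groups by limma's test of the difference itself. Between Treg and Tconv in vivo the change of Slc16a5 differed by 2.23 (SE 0.39, adjusted p = 0.0312) and that of A430093F15Rik by -1.45 (SE 0.25, adjusted p = 0.0312), as Treg minus Tconv.

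Between culture and injection the Tconv change differed by 3.19 for Gbp5 (SE 0.41, adjusted p = 0.000532), by 3.05 for Irgm1 (SE 0.49, adjusted p = 0.00453), by 2.49 for Eomes (SE 0.42, adjusted p = 0.00757) and by -1.47 for Btbd11 (SE 0.27, adjusted p = 0.0170), as in vitro minus in vivo.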

How the results depend on the processing

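Without 1 array no called gene named in the text could change direction, because its 0 h and 72 h groups did not overlap. Under the other alternatives none changed direction. Uncalled genes near 0 did: Pdia6 ranged from -0.01 to 0.23 without 1 array (-0.01 without 0 h number 2 or 72 h number 1), Cd4 from -0.09 to 0.04 (0.02 without 0 h number 2 and 0.04 without 72 h number 1) and Foxp3 from -0.14 to 0.03 (0.03 without 72 h number 2). The 36 calls at 72 h against 0 h became 10 to 57 when 1 array was left out and 55 with in vivo arrays alone, and the 48 genes with 2-fold changes in both numbers became 91 at a threshold of 0.8 log2 units and 12 at 1.5. The 107 calls against 24 h became 50 with the filter on the 4 arrays and 17 to 156 without 1 array, and the 16 against rat IgG became 10 after median centring and 7 to 31 without 1 array. The 2 Treg differences became 0 after centring, 1 with in vivo arrays alone and 0 to 2 without 1 array. The 938 calls in culture became 2748 after quantile normalization and 134 to 6926 without 1 array, and the 11 differences between culture and injection became 51 and 3 to 5077. The cause was not tested.

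With the array number as a replicate block, 52 genes were called at 72 h against 0 h, all 36 among them, 194 against 24 h, 1689 in culture and 54 for culture against injection. Same-numbered arrays deviated together from their group means in 32 of 45 pairs of in vivo groups (correlation over 0.1), and in Tconv at 0 h and 72 h with a correlation of 0.767. The labels give number 1 as single-sorted and number 2 as double-sorted at 0 h, 24 h and 72 h in Tconv, and name no shared mouse, litter or day, so the fit without the block is the one reported first. With 2 arrays a group, the number of arrays limits every value.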
